A study of Mus musculus with 119 samples.

Results

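Messenger RNA of 5 genes, the transcription factors *Egr1*, *Egr2* and *Egr3* and the corepressors *Nab1* and *Nab2*, was followed in mouse bone marrow–derived macrophages (BMDMs). The members were taken by symbol from a table of 18098 genes, all 5 were present, and all 5 passed the filter on low values in both fits, among 11884 and 11971 genes tested. The libraries formed 25 groups. WT cells, the reference, gave 6 libraries each without LPS, after 0.5 h and after 1 h of it, and 4 after 2 h. *Map3k8*[D270A] cells, whose TPL-2 kinase (the product of *Map3k8*) is catalytically inactive, gave 6 at each of these 4 times, and *Elk1*-/-*Elk4*-/- cells, which lack 2 ternary complex factors, gave 4 at each. *Nfkb1*[SS/AA] cells, whose p105 protein cannot be phosphorylated by the IKK complex and so holds TPL-2 back, gave 6 libraries at 0, 0.5 and 1 h. WT cells were also given PD0325901 (0.1 µM), an inhibitor of MKK1/2, the kinases that activate ERK1/2, for 10 min before LPS (6 libraries each at 0.5 and 1 h), or without LPS for 10, 40 and 70 min (3 each), or its solvent DMSO for 10 min (3). RSKi47 (2 µM), an inhibitor of the RSK kinases that ERK1/2 activate, was given to WT cells for 10 min before LPS of 0, 0.5, 1 and 2 h (4, 3, 4 and 4 libraries). LPS, a ligand of TLR4, was used at 100 ng/ml, every strain was labelled C57BL/6(NIMR), the labels name no transgene or Cre driver, and they give neither the age of the mice nor whether libraries with different numbers came from different animals, so the p values measure the spread between libraries. No group received DMSO together with LPS. The *Elk1*-/-*Elk4*-/-, *Nfkb1*[SS/AA], PD0325901 and RSKi47 libraries carry the names of separate experiments that hold no untreated WT cells, and WT libraries of the TPL experiment served as their control, so for these arms the treatment or genotype and the experiment cannot be told apart.

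EGR proteins are zinc finger transcription factors that bind GC-rich sites, and their genes are classical immediate early genes: a growth factor or TLR signal that activates ERK1/2 leads to phosphorylation of ternary complex factors such as ELK1 and ELK4, which sit with serum response factor (SRF) on serum response elements of these promoters. NAB1 and NAB2 have no DNA-binding activity of their own. They bind the inhibitory domain of EGR1, EGR2 and EGR3 and recruit repressor complexes that include CHD4, and *Nab2* is known as an EGR-induced gene that forms a negative feedback. In myeloid cells EGR1 and EGR2 are known for their part in the choice of the macrophage over the neutrophil fate, and EGR2 is also a lineage factor of Schwann cells.

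The promoter sequences of RefSeq (GRCm38.p6, 250 bases before to 50 after a start site) include 3 of the 5 members, *Egr2*, *Nab1* and *Nab2*. The windows of *Egr2* and *Nab1* are shown because they hold a match to the site of one of the factor families named above, and the match is printed in capitals, 5′ to 3′ on the strand of the gene. *Egr2* has 5 listed start sites, and the window of the third (chr10:67537619-67537918, plus strand) holds a CArG box, the core to which SRF binds, that starts 72 bases before the start site. The *Nab1* window (chr1:52500399-52500698, minus strand) holds 3 matches to the EGR site, searched as GCGTGGGCG or GCGGGGGCG, which begin 141, 109 and 38 bases before the start site.
Egr2: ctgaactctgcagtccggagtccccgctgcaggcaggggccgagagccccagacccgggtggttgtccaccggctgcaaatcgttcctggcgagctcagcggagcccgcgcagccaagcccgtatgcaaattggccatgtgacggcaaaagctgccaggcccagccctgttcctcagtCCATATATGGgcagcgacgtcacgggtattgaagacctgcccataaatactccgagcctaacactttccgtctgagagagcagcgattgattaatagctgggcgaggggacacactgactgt
Nab1: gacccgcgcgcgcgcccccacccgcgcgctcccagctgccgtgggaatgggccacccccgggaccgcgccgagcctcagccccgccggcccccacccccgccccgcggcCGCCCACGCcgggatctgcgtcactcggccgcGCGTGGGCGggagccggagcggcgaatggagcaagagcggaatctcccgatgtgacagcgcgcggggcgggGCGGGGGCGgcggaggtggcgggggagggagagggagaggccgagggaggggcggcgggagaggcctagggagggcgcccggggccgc
On both strands of all 32851 windows, a CArG box was found in 1.63% and an EGR site in 3.47%. A CArG box was found in 4 of the 5 *Egr2* windows, 3 of which overlap. The *Nab2* window (chr10:127666654-127666953, minus strand) held neither. None of the 3 genes held the CRE letters TGACGTCA (1.79% of all windows) or the AP-1 letters TGACTCA (5.2%) in any window, and GGAA, the core of ETS sites such as those of ternary complex factors, was present in every window of the 3 genes but also in 96% of all windows. A match describes letters only.

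Values are the deposited log2 levels, which are not counts, and the sources give a typical yield but no depth for single libraries, so the spread between libraries sets the precision. The study calls the values it plots log2 normalised counts, but neither the labels nor its methods say how the values of the table were transformed, so a difference of 1 on this scale need not be an exact doubling. As a check of the labels, *Elk1* stood at 6.36 ± 0.18 (SD, n = 4) in unstimulated *Elk1*-/-*Elk4*-/- libraries against 9.14 ± 0.05 (SD, n = 6) in WT, and *Elk4* at 5.71 ± 0.17 against 7.72 ± 0.09. The macrophage markers were high in every group and the lymphoid markers were at or near the floor. Of 7 macrophage markers, 2 or 3 were lower and 2 higher than in WT in *Elk1*-/-*Elk4*-/- cells, 2 and 2 in *Nfkb1*[SS/AA] cells, 1 and 1 with PD0325901 and LPS, and 1 and 2 or 3 with RSKi47, over all times of each arm. Of all genes, 22% to 26.2% were lower and 22.4% to 27.7% higher in the *Elk1*-/-*Elk4*-/- comparisons. In those of *Nfkb1*[SS/AA] cells 15.1% to 21.9% were lower and 16.7% to 20.5% higher. With PD0325901 and LPS these shares were 15% to 19.3% and 14.5% to 16.4%, and with RSKi47 24.5% to 26.3% and 23.7% to 27.5%. The same shares apply to the other marker lists below. In *Map3k8*[D270A] cells 0, 0, 1 and 2 macrophage markers were lower at 0, 0.5, 1 and 2 h and none higher. Of all genes, 0.833%, 0.892%, 4.64% and 13.1% were lower at these times and 0.606%, 0.48%, 5.14% and 14.6% higher. Both tested markers of dendritic cells were lower at 2 h in *Map3k8*[D270A] and *Elk1*-/-*Elk4*-/- cells, where the summed level of the list was 31.4 to 41.2 and 29.3 to 38.2, against 55.5 to 62.9 in WT. In the other arms 0 or 1 of them was lower and 0 or 1 higher. Neutrophil markers differed between arms: their summed linear level was 81.4 to 146 in unstimulated WT and 1050 to 1474 in unstimulated *Elk1*-/-*Elk4*-/- libraries, where 5 of 5 tested markers were higher at every time, and it was 271 to 448 with PD0325901 and LPS, with 5 of 5 higher at both times. DMSO libraries, given neither the inhibitor nor LPS, already had 185 to 303, and those with PD0325901 alone for 10 min 156 to 270. RSKi47 libraries had a summed neutrophil level of 135 to 385, with 4, 4, 5 and 5 of 5 markers higher at 0, 0.5, 1 and 2 h, and a summed stromal level of 33.5 to 683, against 15.7 to 30.6 in WT, with 2 of 2 tested markers higher at every time. The 1 stromal marker tested in *Elk1*-/-*Elk4*-/- cells was higher at 0.5, 1 and 2 h, with a summed level of 21.3 to 29.2 at these times. *Nfkb1*[SS/AA] libraries had 3 of 5 neutrophil markers higher at 1 h, with a summed level of 154 to 325 against 83.4 to 213 in WT, and none at 0 and 0.5 h. Of 4 tested genes of a glial list, 3 were lower and 1 higher in *Elk1*-/-*Elk4*-/- cells at every time, and 2 to 4 were lower and 0 or 1 higher in each comparison of *Nfkb1*[SS/AA], PD0325901 and LPS, and RSKi47 with WT, while *Sox10*, the defining gene of that list, stood at the floor. *Map3k8*[D270A] libraries had no neutrophil or stromal marker called and 1 glial gene lower, at 2 h. The part of these cells in the results below was not tested, and in bulk libraries a change in RNA per cell and a change in the number of expressing cells cannot be told apart. Libraries of RSKi47 replicate 4 and of *Nfkb1*[SS/AA] replicate 2 at 1 h stood apart from the others of their groups.

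LPS raised all 3 *Egr* genes and, more weakly, both *Nab* genes in WT cells, each with its own time course. At 0.5 h 4 of the 5 members had risen and none had fallen, where 7.82% of all genes rose and 3.81% fell. At 1 h 5 of 5 were above the unstimulated level, where 23.8% of all genes were higher and 23% lower. At 2 h *Egr1* and *Nab1* were still above it and *Nab2* was below it, where 34.7% of all genes were higher and 36.8% lower. With the added requirement of a log2 difference of at least 1, the 3 *Egr* genes remained at 0.5 and 1 h (0.623% and 3.2% of all genes) and *Egr1* at 2 h (7.72%).

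*Egr1* (chromosome 18 from 34861207 to 34864956, plus strand) was the earliest. In unstimulated WT libraries its level ran from 7.70 to 8.33 with a median of 8.02, and at 0.5 h from 13.02 to 14.27 with a median of 13.17. The 2 groups lay far apart, with a difference of 5.34 (SE 0.13, limma adjusted p = 1.4e-37). The WT library at 0.5 h with number 8, with the value of 14.27, stood above the other 5. *Egr1* then declined to between 11.19 and 11.62 (median 11.36) at 1 h, a fall by 1.93 from 0.5 h (SE 0.13, adjusted p = 2.71e-18), and to 8.99, 9.28, 9.27 and 8.53 at 2 h. All 4 of these last values were above every unstimulated one. The difference from unstimulated cells at 2 h was 1.03 (SE 0.15, adjusted p = 2.32e-08) and was 0.48 (adjusted p = 0.202) with WT replicates 7 to 9 alone (the second of 2 sets of replicates), of which 1 was sequenced at 2 h.

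*Egr3* (chromosome 14 from 70077317 to 70082613, plus strand) and *Egr2* (chromosome 10 from 67534469 to 67542188, plus strand) stayed high until 1 h. *Egr3* ran from 6.81 to 7.20 (median 6.96) in unstimulated WT libraries, from 8.95 to 10.03 (median 9.44) at 0.5 h and from 9.79 to 10.21 (median 10.04) at 1 h. The groups with and without LPS did not overlap, and the differences were 2.46 (SE 0.13, adjusted p = 5.75e-22) and 3.03 (SE 0.13, adjusted p = 6.3e-27). At 2 h it was back at 6.96, 7.31, 7.11 and 7.12, within or just above the unstimulated range. *Egr2* ran from 9.55 to 10.59 (median 10.14) without LPS, from 11.98 to 13.17 (median 12.33) at 0.5 h and from 12.27 to 12.70 (median 12.53) at 1 h. It rose by 2.37 (SE 0.15, adjusted p = 1.23e-19) and 2.43 (SE 0.15, adjusted p = 4.75e-21). At 2 h the 4 libraries, at 9.96, 10.02, 10.02 and 10.21, all lay inside the unstimulated range.

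The corepressors moved less. *Nab2* (chromosome 10 from 127660918 to 127666703, minus strand) ran from 9.65 to 10.00 (median 9.91) without LPS, from 9.93 to 10.41 (median 10.28) at 0.5 h and from 9.94 to 10.43 (median 10.25) at 1 h. It rose by 0.35 (SE 0.08) at both times (adjusted p = 0.00228 and 0.00035), with the lowest stimulated libraries inside the unstimulated range, and neither rise passed with the second set of replicates alone, where the differences were 0.40 and 0.27. At 2 h its libraries were at 9.58, 9.63, 9.38 and 9.38, below every unstimulated one, with a fall by 0.39 (SE 0.09, adjusted p = 0.000226) that did not pass with the second set alone either (-0.44, adjusted p = 0.0593). Of their 2941 bases, the *Nab2* exons share 40 with *Stat6*, 151 with *Nemp1* and 1050 with an antisense RNA, all on the opposite strand. Reads were strand-specific by the study's methods, but no source read here states the strand setting of the counting. *Nab1* (chromosome 1 from 52455849 to 52500712, minus strand) did not move at 0.5 h (difference 0.02, 95% interval -0.06 to 0.10), and at 1 h had risen from a range of 10.89 to 11.02 (median 10.95) to one of 11.36 to 11.50 (median 11.43). This rise of 0.47 (SE 0.04, adjusted p = 1.32e-15) left no overlap, and *Nab1* was the only member whose 2 h libraries, at 11.44, 11.37, 11.35 and 11.42, kept nearly the 1 h level.

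**Figure D1:**
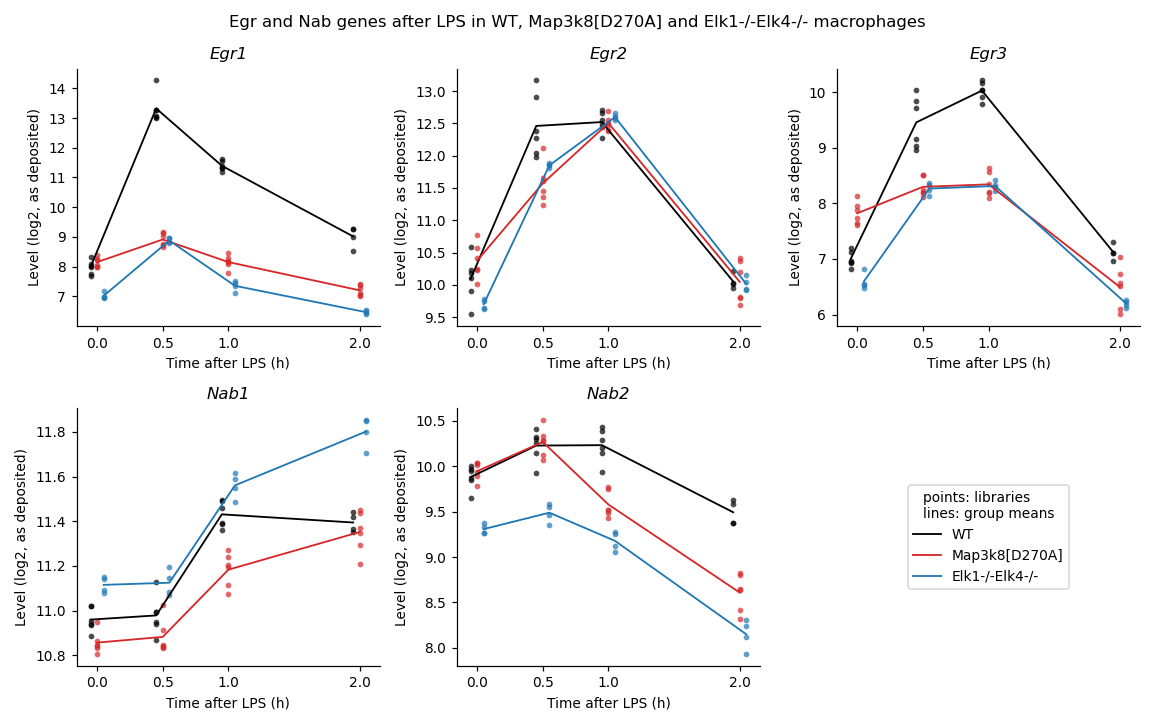
Deposited log2 level (y axis) of each gene against time after LPS in h (x axis) in WT (black), *Map3k8*[D270A] (red) and *Elk1*-/-*Elk4*-/- (blue) macrophages, with points for libraries, shifted sideways by group, and lines for group means. *Egr1* peaked in WT at 13.32 at 0.5 h against 8.91 and 8.88 in the mutants, whereas *Egr2* at 1 h was between 12.50 and 12.60 in all 3.

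Loss of TPL-2 kinase activity lowered the LPS-induced level of *Egr1* and *Egr3* at every time after LPS, of *Egr2* at 0.5 h and of *Nab2* from 1 h on. Compared with WT, 3, 4 and 3 of the 5 members were lower at 0.5, 1 and 2 h, and none was higher, where 0.892%, 4.64% and 13.1% of all genes were lower and 0.48%, 5.14% and 14.6% higher. Without LPS 1 member was higher and none lower, where 0.606% of all genes were higher and 0.833% lower.

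In *Map3k8*[D270A] cells *Egr1* ran from 7.99 to 8.39 (median 8.14) without LPS and from 8.66 to 9.15 (median 8.90) at 0.5 h. Its unstimulated range lay on that of WT, and at 0.5 h all 6 libraries were far below the lowest WT library. The difference from WT at 0.5 h was -4.41 (SE 0.13, adjusted p = 1.13e-32). At 1 h the mutant ranged from 7.78 to 8.45 (median 8.17), a difference of -3.24 (SE 0.13, adjusted p = 4.65e-26), and at 2 h from 7.01 to 7.41 (median 7.19), a difference of -1.81 (SE 0.15, adjusted p = 3.28e-14). A response remained at 0.5 h, 0.76 (SE 0.13, adjusted p = 5.19e-05). At 2 h the mutant stood 0.95 below its own unstimulated level (SE 0.13, adjusted p = 1.17e-08), whereas WT was above its own.

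*Egr3* was the member that differed before stimulation, and in the opposite direction. Unstimulated mutant libraries ran from 7.60 to 8.13 (median 7.80), all above the WT maximum of 7.20, a difference of 0.82 (SE 0.13, adjusted p = 6.88e-05). At 0.5 h they ran from 8.12 to 8.52 (median 8.22) and at 1 h from 8.10 to 8.63 (median 8.28), all below the WT minima of 8.95 and 9.79. The differences were -1.16 (SE 0.13, adjusted p = 9.13e-09) and -1.69 (SE 0.13, adjusted p = 1.81e-14). At 2 h the range of 6.01 to 7.04 (median 6.54) overlapped that of WT, with a difference of -0.63 (SE 0.15, adjusted p = 0.000989) that was -0.33 (adjusted p = 0.391) with the second set of replicates alone. The response of *Egr3* in the mutant was 0.47 at 0.5 h and 0.52 at 1 h (SE 0.13 each, adjusted p = 0.0213 and 0.00115), and the former was lost when any one of *Map3k8*[D270A] replicates 1 to 4 was left out (0.44 to 0.48, adjusted p = 0.0559 to 0.0826).

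*Egr2* was lower than in WT at 0.5 h alone. Mutant libraries ran from 11.24 to 12.12 (median 11.53) at that time, just overlapping WT, with a difference of -0.89 (SE 0.15, adjusted p = 4.3e-05). At 1 h they ran from 12.39 to 12.69 (median 12.50) and the difference was -0.02 (95% interval -0.31 to 0.28). WT libraries of replicates 4 to 6 and of replicates 7 to 9 differed at 0.5 h. *Egr2* had means of 12.10 and 12.82 in them and *Egr3* means of 9.05 and 9.86, both with no overlap, whereas at 1 h the 2 sets overlapped for *Egr2*. *Egr1* also split without overlap at 0.5 h, with means of 13.04 and 13.61 in WT and 8.72 and 9.11 in the mutant sets. Against the matching mutant libraries, replicates 1 to 3 and 4 to 6, *Egr2* was lower at 0.5 h in each set, with mutant means of 11.49 and 11.66 and no overlap. When the fit held the compared groups alone, this difference did not pass (adjusted p = 0.0907).

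**Figure D2:**
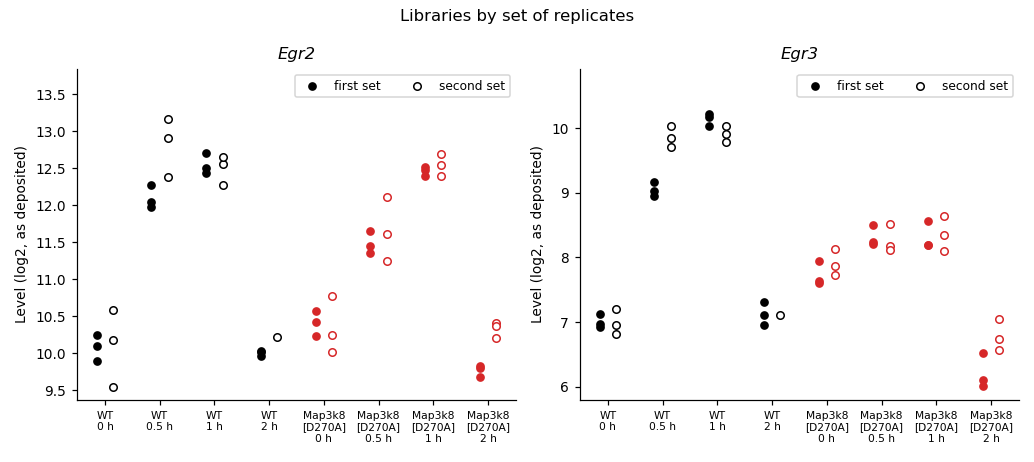
Deposited log2 level (y axis) of *Egr2* and *Egr3* in each library of WT (black) and *Map3k8*[D270A] (red) cells by LPS time (x axis), with filled points for WT replicates 4 to 6 and mutant replicates 1 to 3 and open points for WT replicates 7 to 9 and mutant replicates 4 to 6. At 0.5 h the WT means of *Egr3* were 9.05 and 9.86 in the 2 sets, and the WT libraries of both sets were above all mutant libraries.

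*Nab2* parted from WT later than the *Egr* genes. Without LPS and at 0.5 h the differences were 0.07 (95% interval -0.10 to 0.23) and 0.04 (95% interval -0.13 to 0.21). At 1 h mutant libraries ran from 9.43 to 9.77 (median 9.52), all below the WT minimum of 9.94, and at 2 h from 8.32 to 8.83 (median 8.64), below the WT minimum of 9.38. These differences were -0.65 (SE 0.08, adjusted p = 3.26e-08) and -0.88 (SE 0.09, adjusted p = 5.29e-11), and the former was -0.42 (adjusted p = 0.095) with the second set alone. *Nab1* was lower at 1 h, with 11.08 to 11.27 (median 11.20) and no overlap with WT, a difference of -0.25 (SE 0.04, adjusted p = 5.03e-06). At 2 h its range of 11.21 to 11.45 held the whole WT range.

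In *Elk1*-/-*Elk4*-/- cells the same 3 genes, *Egr1*, *Egr3* and *Nab2*, were lower at all 4 times, also before LPS, and *Nab1* was higher at all 4. In all, 4 members were lower without LPS and at 0.5 h and 3 at 1 and 2 h, but in this comparison 24.6%, 22%, 26.2% and 23.1% of all genes were lower, and 27.2%, 22.4%, 27.2% and 27.7% higher. By a log2 difference of at least 1, 0, 2, 3 and 2 members were lower, against 0.463%, 0.446%, 0.665% and 0.959% of all genes. Without 1 of *Elk1*-/-*Elk4*-/- replicates 2, 3 or 4, 2 members instead of 4 were lower before LPS.

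*Egr1* was at 6.96, 7.17, 6.98 and 6.96 in unstimulated *Elk1*-/-*Elk4*-/- libraries, all below the WT minimum of 7.70, and at 8.82, 8.96, 8.95 and 8.79 at 0.5 h. The differences from WT were -0.97 (SE 0.15, adjusted p = 4.27e-07) and -4.45 (SE 0.15, adjusted p = 5.06e-31). LPS still raised *Egr1* by 1.86 (SE 0.16, adjusted p = 1.93e-13) at 0.5 h, against 5.34 in WT. At 1 h it was at 7.33, 7.45, 7.52 and 7.11 and at 2 h at 6.49, 6.44, 6.40 and 6.52, the lowest level of *Egr1* in any of the 25 groups. *Egr3* was at 6.82, 6.47, 6.54 and 6.54 without LPS, overlapping WT in 1 library, with a difference of -0.41 (SE 0.15, adjusted p = 0.0209) that did not pass without replicate 2, 3 or 4. It was at 8.32, 8.13, 8.24 and 8.36 at 0.5 h and at 8.33, 8.29, 8.21 and 8.41 at 1 h, all below WT. These differences were -1.19 (SE 0.15, adjusted p = 7.81e-09) and -1.72 (SE 0.15, adjusted p = 1.25e-13).

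*Nab2* was at 9.27, 9.37, 9.33 and 9.26 without LPS, at 9.25, 9.28, 9.05 and 9.13 at 1 h and at 8.31, 8.12, 7.93 and 8.24 at 2 h. No library reached the WT range at any time, and the difference grew from -0.57 (SE 0.09, adjusted p = 1.04e-06) to -1.34 (SE 0.10, adjusted p = 6.61e-16). *Nab1* was higher by 0.16 (SE 0.04, adjusted p = 0.00242) without LPS and by 0.41 (SE 0.05, adjusted p = 5.62e-10) at 2 h, where its libraries, at 11.80, 11.85, 11.85 and 11.71, were above those of every other group. At 0.5 and 1 h its difference was 0.15 and 0.13 and did not pass against WT replicates 7 to 9 alone (0.10, adjusted p = 0.12) and 4 to 6 alone (0.08, adjusted p = 0.189), respectively. *Egr2* was lower by 0.61 at 0.5 h (SE 0.16, adjusted p = 0.00209), with libraries at 11.88, 11.85, 11.86 and 11.81 below the WT minimum of 11.98, and its difference at 1 h was 0.08 (95% interval -0.25 to 0.41). Against WT replicates 4 to 6 alone the 0.5 h difference was -0.25 (adjusted p = 0.164). Its lower level without LPS, -0.39 (adjusted p = 0.0421), did not pass when any one of 8 replicates was left out.

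The 2 mutants were also compared with each other, since both comparisons above share the WT libraries. At 0.5 h *Egr1* differed between them by less than the spread between libraries (*Elk1*-/-*Elk4*-/- minus *Map3k8*[D270A] -0.04, 95% interval -0.34 to 0.27) and was lower in *Elk1*-/-*Elk4*-/- cells without LPS (-1.13, SE 0.15, adjusted p = 1.51e-08) and at 1 and 2 h (-0.80 and -0.74). *Egr3* was lower there without LPS by 1.23 (SE 0.15, adjusted p = 2.15e-09) and differed by -0.03 at 0.5 and 1 h (95% interval -0.33 to 0.27 at both). *Nab2* was lower at all 4 times, by 0.78 at 0.5 h (SE 0.09, adjusted p = 1.58e-09), and *Nab1* was higher at all 4, by 0.45 at 2 h (SE 0.04, adjusted p = 2.18e-12). At 0.5 and 1 h the *Egr3* ranges of the 2 mutants overlapped, although their unstimulated ranges did not.

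**Figure D3:**
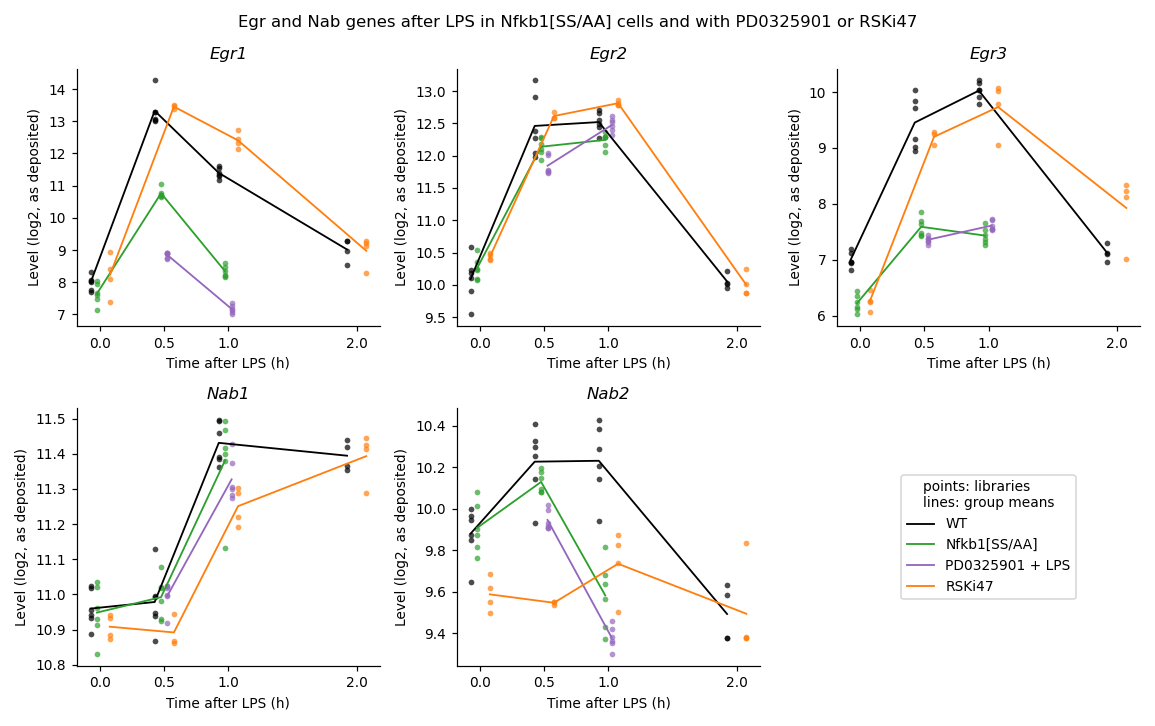
Deposited log2 level (y axis) of each gene against time after LPS in h (x axis) in WT cells (black), *Nfkb1*[SS/AA] cells (green), WT cells with PD0325901 and LPS (purple) and WT cells with RSKi47 (orange), with points for libraries and lines for group means. *Egr1* at 1 h was at 7.17 with PD0325901, at 8.34 in *Nfkb1*[SS/AA] cells, at 11.40 in WT and at 12.41 with RSKi47.

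In *Nfkb1*[SS/AA] cells *Egr1* responded to LPS by 3.12 at 0.5 h (SE 0.14, adjusted p = 2.96e-36) and by 0.69 at 1 h (SE 0.14, adjusted p = 2.97e-05), less than in WT at both times. Of the 5 members, 1, 3 and 4 were lower than in WT at 0, 0.5 and 1 h and none was higher, where 15.1%, 15.6% and 21.9% of all genes were lower and 16.9%, 16.7% and 20.5% higher. *Egr1* ran from 10.65 to 11.04 (median 10.71) at 0.5 h and from 8.16 to 8.59 (median 8.29) at 1 h, below all WT libraries at both times. The differences were -2.56 and -3.06 (SE 0.14 each, adjusted p = 9.93e-29 and 8.04e-35). At 0.5 h *Egr1* was 1.85 above *Map3k8*[D270A] cells (SE 0.14, adjusted p = 5.18e-20), with no overlap, and at 1 h the difference from them was 0.18 (95% interval -0.10 to 0.47).

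*Egr3* was lowest, among the groups with 0.5 or 1 h of LPS, in *Nfkb1*[SS/AA] cells and with PD0325901. In *Nfkb1*[SS/AA] libraries it ran from 6.02 to 6.44 (median 6.20) without LPS, from 7.42 to 7.84 (median 7.56) at 0.5 h and from 7.27 to 7.66 (median 7.40) at 1 h. All were below WT at the same time, by 0.78, 1.87 and 2.60 (SE 0.13 each, adjusted p = 1.94e-06, 5.8e-22 and 7.77e-32), and below *Map3k8*[D270A] cells, by 1.60, 0.71 and 0.91. *Nab2* did not pass at 0 and 0.5 h and was lower by 0.65 at 1 h (SE 0.08, adjusted p = 4.83e-12), with 9.37 to 9.82 (median 9.60) below all WT libraries. *Nab1* did not pass at any time, with differences between -0.05 and 0.01. *Egr2* was lower by 0.32 and 0.28 at 0.5 and 1 h (adjusted p = 0.0261 and 0.0488), but against WT replicates 4 to 6 alone the 0.5 h difference was 0.04, several single replicates left out ended each call, and so did a replicate block by number across the groups (-0.24 and -0.20, adjusted p = 0.0831 and 0.156).

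PD0325901 lowered LPS-stimulated *Egr1* as far as the *Map3k8*[D270A] mutation or further. The 6 libraries may hold fewer independent samples, since libraries 1 and 4, 2 and 5, and 3 and 6 were each other's nearest at both times (root mean square difference 0.112 to 0.131). In all, 4 of 5 members were lower than in WT at 0.5 and at 1 h and none was higher, where 15% and 19.3% of all genes were lower and 14.5% and 16.4% higher. *Egr1* ran from 8.72 to 8.92 (median 8.88) at 0.5 h and from 7.01 to 7.36 (median 7.15) at 1 h, with differences from WT of -4.48 and -4.22 (SE 0.14 each, adjusted p = 4.26e-48 and 7.29e-46). Its difference from *Map3k8*[D270A] cells at 0.5 h was -0.07 (95% interval -0.36 to 0.22), and it was 0.98 lower at 1 h (SE 0.14, adjusted p = 3.12e-08). *Egr3* ran from 7.27 to 7.44 (median 7.35) and from 7.53 to 7.72 (median 7.58), below WT by 2.10 and 2.42 (SE 0.13 each). *Nab2*, at 9.91 to 10.02 (median 9.93) and 9.30 to 9.46 (median 9.37), was lower by 0.28 (SE 0.08, adjusted p = 0.00245) and 0.85 (SE 0.08, adjusted p = 5.51e-17), with no overlap at 1 h. *Egr2* was lower at 0.5 h by 0.62 (SE 0.12, adjusted p = 1.96e-05), though by 0.26 (adjusted p = 0.0737) against WT replicates 4 to 6 alone, and at 1 h its difference was -0.05 (95% interval -0.28 to 0.19). *Nab1* was lower by 0.10 at 1 h (adjusted p = 0.0307), which did not pass when any one of 7 replicates was left out or when the paired libraries were averaged (adjusted p = 0.116).

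Without LPS the inhibitor alone was followed over time. DMSO was given for 10 min only, so at 40 and 70 min the inhibitor and the time with its solvent cannot be told apart. At 10 min limma called 0 of 11971 genes (0%) against DMSO, with 245 at an unadjusted p below 0.05, of which 0 were members. *Egr1* was at 7.74, 7.86 and 7.84 with DMSO and at 7.96, 7.70 and 7.74 with PD0325901 for 10 min, at 7.04, 6.70 and 6.98 after 40 min and at 7.05, 6.74 and 6.88 after 70 min. The later libraries were all below the earlier ones, by 0.89 and 0.91 (SE 0.20 each, adjusted p = 0.00299 and 0.00134), and the former did not pass without replicate 1 (adjusted p = 0.0528) or 2 (adjusted p = 0.117). *Egr3* was at 6.64, 6.69 and 6.56 at 10 min, at 6.45, 6.48 and 6.41 at 40 min and at 5.72, 5.81 and 5.78 at 70 min. It was lower at 70 min, by 0.86 (SE 0.19, adjusted p = 0.00102), which made it the lowest *Egr3* level of the 25 groups. *Nab2* was lower at 40 min by 0.35 (SE 0.11, adjusted p = 0.0428), a call lost without any one of the 3 replicates. So 2 of 5 members were lower at 40 and at 70 min, where 2.26% and 3.47% of all genes were lower, and no member was higher, where 1.32% and 2.62% of all genes were. Against 10 min, 2 of 5 neutrophil markers and 1 of 2 dendritic markers were higher at 40 and at 70 min, with a summed neutrophil level of 344 to 440 and 344 to 354 against 156 to 270, and their part in these values was not tested. Against untreated WT cells, DMSO libraries passed the test for no member, whereas 23.6% of all genes passed.

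RSKi47 did not lower LPS-stimulated *Egr1*. At 0.5 h its libraries were at 13.51, 13.38 and 13.47, with a difference of 0.13 (95% interval -0.22 to 0.48). They lay within the WT range only through WT replicate 8, at 14.27, and were above all other WT libraries, at 13.02 to 13.28. At 1 h they were at 12.72, 12.33, 12.46 and 12.12, all above the WT maximum of 11.62, by 1.01 (SE 0.16, adjusted p = 9.89e-08). At 2 h they were at 9.28, 9.14, 9.21 and 8.28, and the difference was -0.04 (95% interval -0.39 to 0.31). Replicate 4 was the lowest of its group for *Egr1* wherever it was sequenced. Without it *Egr1* was also higher before LPS, by 0.49 (adjusted p = 0.00506), where all 4 libraries gave 0.22 (adjusted p = 0.242).

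The other members under RSKi47 moved in several directions. Compared with WT, 2, 1, 2 and 0 members were lower and 1, 0, 1 and 1 higher at 0, 0.5, 1 and 2 h, where 26.3%, 24.5%, 26.3% and 24.6% of all genes were lower and 26.8%, 23.7%, 26.5% and 27.5% higher. *Egr3* was at 6.46, 6.25, 6.25 and 6.07 without LPS, below all WT libraries by 0.74 (SE 0.15, adjusted p = 1.81e-05), and did not pass at 0.5 and 1 h. At 2 h it was at 8.23, 8.34, 8.13 and 7.01, where replicates 1 to 3 were above all WT libraries and replicate 4 lay inside the WT range, and the difference was 0.80 (SE 0.16, adjusted p = 2.08e-05) with replicate 4 and 1.11 (adjusted p = 4.27e-10) without it. *Nab2* was at 9.54, 9.55 and 9.55 at 0.5 h and at 9.74, 9.82, 9.88 and 9.50 at 1 h, below every WT library, by 0.68 (SE 0.09, adjusted p = 1.3e-09) and 0.50 (SE 0.08, adjusted p = 4.09e-07). Without LPS *Nab2* was already at 9.68, 9.55, 9.62 and 9.50, with a mean of 9.59 against 9.88 in WT, and was called lower. Its LPS response in this arm was -0.04 at 0.5 h and 0.15 at 1 h. Neither passed, and at neither time did its difference from the WT response pass. *Nab1* was lower at 1 h by 0.18 (SE 0.04, adjusted p = 0.000336) with no overlap. *Egr2* was higher before LPS by 0.34 (adjusted p = 0.0233), a call lost without WT replicate 4 or 8 or RSKi47 replicate 1 or 4. At 1 h its libraries, at 12.78 to 12.87, were all above the WT maximum of 12.70. The means were 12.81 and 12.52, and the difference did not pass.

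The 2 inhibitors, which act at successive steps of the pathway, were compared directly at matched LPS times. *Egr1* was higher with RSKi47 than with PD0325901 by 4.61 (SE 0.18, adjusted p = 1.51e-41) at 0.5 h and 5.23 (SE 0.16, adjusted p = 8.47e-50) at 1 h, and *Egr3* by 1.84 (SE 0.16, adjusted p = 6.16e-17) and 2.12 (SE 0.15, adjusted p = 6.87e-23), with no overlap. *Egr2* was higher by 0.77 (SE 0.14, adjusted p = 4.26e-06) and 0.34 (SE 0.13, adjusted p = 0.0229), the latter lost without PD0325901 replicate 1 or RSKi47 replicate 2 and with the PD0325901 libraries averaged in pairs (adjusted p = 0.0717). *Nab2* was lower with RSKi47 at 0.5 h (-0.40, SE 0.09, adjusted p = 0.000166) and higher at 1 h (0.36, SE 0.08, adjusted p = 0.000192). *Nab1* did not pass at either time (-0.11 and -0.08, adjusted p = 0.0618 and 0.137).

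**Figure D4:**
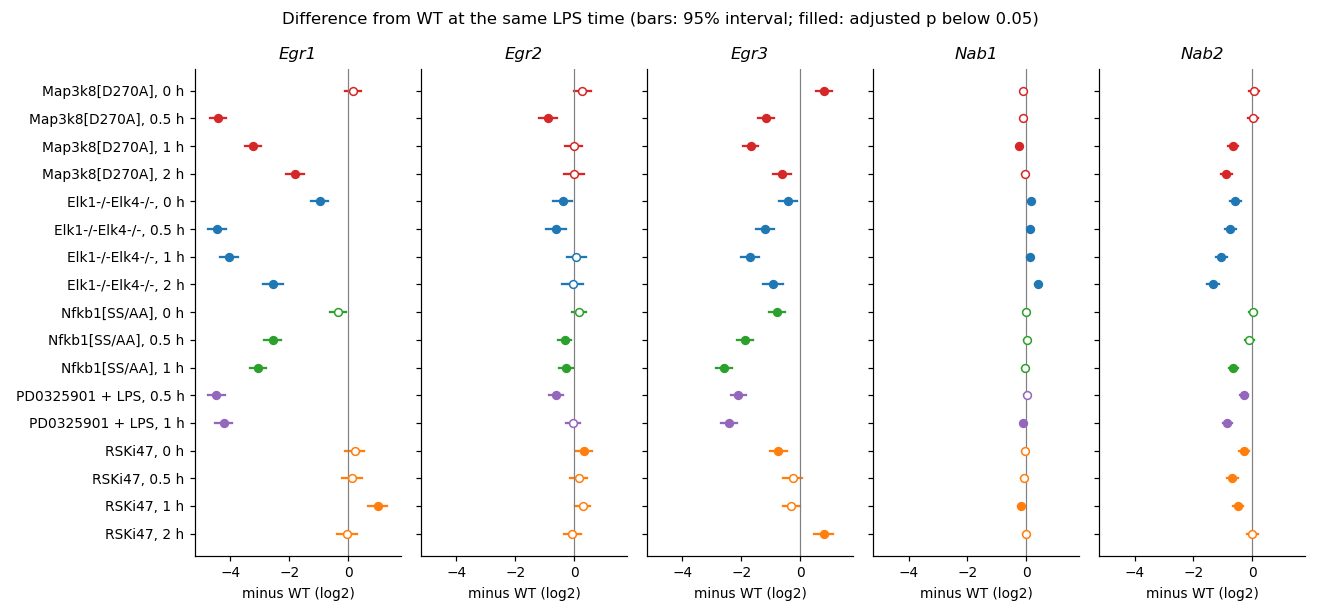
Difference of each arm from WT at the same LPS time (x axis, log2 units of the deposited scale) for each gene, with points for the limma estimate, filled where the adjusted p is below 0.05, and bars for the 95% interval. *Egr1* differed by -4.41, -4.45 and -4.48 at 0.5 h in *Map3k8*[D270A] cells, *Elk1*-/-*Elk4*-/- cells and with PD0325901, while no *Nab1* difference exceeded 0.41.

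Because some arms differed from WT before LPS, the LPS response, stimulated minus unstimulated level in the same arm, was compared with that of WT. With PD0325901 the unstimulated level was the inhibitor alone for 40 min (for 0.5 h of LPS) or 70 min (for 1 h), times by which *Egr1* had fallen, and by 70 min *Egr3* too. Against the inhibitor alone for 10 min, a choice made after seeing the data, the response at 1 h was -0.63 instead of 0.28 for *Egr1* and 0.98 instead of 1.84 for *Egr3*, and that of *Nab2* at 0.5 h was -0.06 (adjusted p = 0.81) instead of 0.29 (adjusted p = 0.0196, and 0.0824 with the stimulated libraries averaged in pairs). On that base the *Egr2* response at 0.5 h was smaller than in WT by 0.80 (adjusted p = 0.00741). The response of *Egr1* was smaller than in WT at 0.5 and 1 h in *Map3k8*[D270A], *Elk1*-/-*Elk4*-/- and *Nfkb1*[SS/AA] cells and with PD0325901, by 2.22 to 4.58. That of *Egr3* was smaller in *Map3k8*[D270A] cells by 1.98 and 2.51 (SE 0.19 each, adjusted p = 5.86e-11 and 1.39e-14), of which the higher unstimulated level is a part, and in *Elk1*-/-*Elk4*-/- cells by 0.78 (SE 0.21, adjusted p = 0.261) and 1.31 (SE 0.21, adjusted p = 5.61e-05). That of *Egr2* differed from WT in *Map3k8*[D270A] cells at 0.5 h by -1.17 (SE 0.21, adjusted p = 0.000857), which did not pass with the compared groups alone in the fit (adjusted p = 0.258), and it passed at no other arm or time in that fit. With arm and replicate number as a random block it also passed in *Nfkb1*[SS/AA] cells at 1 h (-0.44, adjusted p = 0.0134), with PD0325901 at 0.5 h (-0.58, adjusted p = 0.00976) and with RSKi47 at 2 h (-0.42, adjusted p = 0.0295), and the *Egr3* difference in *Elk1*-/-*Elk4*-/- cells at 0.5 h then had an adjusted p of 0.0245. At 1 h *Nab2* lay below its own unstimulated level in *Map3k8*[D270A] and *Nfkb1*[SS/AA] cells and with PD0325901, by 0.37, 0.33 and 0.43, whereas WT lay above its own by 0.35. With the second set of replicates alone the *Map3k8*[D270A] value was -0.23 (adjusted p = 0.224). The response of *Nab1* passed at 1 h in all 6 arms, between 0.33 and 0.47, and none of the differences from WT passed at 0.5 or 1 h.

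**Figure D5:**
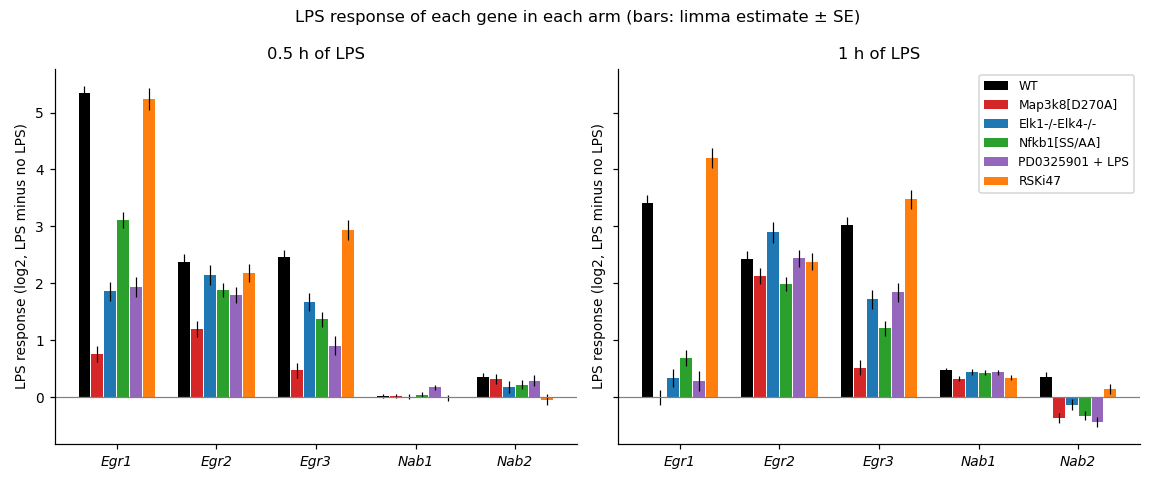
LPS response of each gene (y axis, stimulated minus unstimulated, log2 units of the deposited scale; limma estimate with SE) in each arm at 0.5 h (left) and 1 h (right). The *Egr1* response at 0.5 h was 5.34 in WT, 5.24 with RSKi47, 3.12 in *Nfkb1*[SS/AA] cells and 0.76 in *Map3k8*[D270A] cells, and the *Nab2* response at 1 h passed the test above 0 in WT and below 0 in *Map3k8*[D270A] and *Nfkb1*[SS/AA] cells and with PD0325901, and did not pass with RSKi47 (0.15) or in *Elk1*-/-*Elk4*-/- cells (-0.13).

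Over all 25 groups the mean level of *Egr1* spanned 6.99 log2 units, *Egr3* 4.26, *Egr2* 3.11, *Nab2* 2.12 and *Nab1* 0.98. In the order of levels, *Egr1* was highest with RSKi47 at 0.5 h, then in WT at 0.5 h, with RSKi47 at 1 h, in WT at 1 h and in *Nfkb1*[SS/AA] cells at 0.5 h. The first 2 of these overlapped, through WT replicate 8 alone, and the steps after them did not. Of the 24 steps between neighbouring groups, the libraries did not overlap in 6 for *Egr1*, 4 for *Egr2*, 3 for *Egr3*, 2 for *Nab1* and 2 for *Nab2*. *Egr2* was highest with RSKi47 at 1 h and lowest in unstimulated *Elk1*-/-*Elk4*-/- cells, *Egr3* highest in WT at 1 h, *Nab1* highest and *Nab2* lowest in *Elk1*-/-*Elk4*-/- cells at 2 h.

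The genes whose group means followed each member most closely were found by Pearson's r over the 25 groups among the 11971 genes tested. For *Egr1* they were *Fosb* (0.85), *Ier2* (0.84) and *Egr3* (0.81), all immediate early genes, and for *Egr3* the ERK phosphatase gene *Dusp5* (0.89), *Fosb* (0.88) and the nuclear receptor gene *Nr4a1* (0.88). For *Egr2* they were *Tgif1*, *Slc25a25* (0.96 each) and *Gtf2ird2* (0.95), for *Nab1* the ETS factor gene *Gabpa* (0.96), *Smndc1* and *Spryd7* (0.95 each), and for *Nab2* *Arl10* (0.89), *Adck5* and *Gm17296* (0.87 each). Between the members r was 0.81 for *Egr1* and *Egr3*, 0.80 for *Egr2* and *Egr3*, 0.62 for *Egr1* and *Egr2*, 0.44 for *Egr1* and *Nab2*, and -0.67 for *Nab1* and *Nab2*. These values describe groups that share libraries and a normalization.

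Of other genes of the system, *Egr4* lay near the floor, at 0.20 in unstimulated WT cells and 0.78 at 1 h, and was not tested. Among SRF and its partners, 6 of 6 genes were tested. In *Map3k8*[D270A] cells 1 was lower at 1 h, *Srf* (10.36 against 10.54 in WT, difference -0.18, SE 0.04, adjusted p = 0.00335), and none higher, where 4.64% of all genes were lower and 5.14% higher. At 2 h 2 were lower and 3 higher, where 13.1% and 14.6% of all genes were. In *Nfkb1*[SS/AA] cells at 1 h 4 of these genes were lower and 0 higher, where 21.9% and 20.5% of all genes were. In WT cells at 1 h of LPS 4 had risen and 0 fallen, where 23.8% and 23% of all genes had. Of 9 genes of the CHD4 corepressor complex 1 was lower at 1 h in *Map3k8*[D270A] cells, *Chd4* (difference -0.17, SE 0.05, adjusted p = 0.02). At 2 h 2 of the 9 were lower, and none was higher at either time. The shares of all genes were 4.64% and 13.1% lower and 5.14% and 14.6% higher. In unstimulated *Elk1*-/-*Elk4*-/- cells 5 of the 9 were lower and 0 higher, where 24.6% and 27.2% of all genes were. With RSKi47 at 1 h 4 were lower and 4 higher, where 26.3% and 26.5% were.

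Of 20 genes known from other cells as EGR targets 18 were tested. In WT cells 10 of them had risen at 0.5 h and 15 at 1 h, where 7.82% and 23.8% of all genes rose. At 2 h 12 were higher and 4 lower than without LPS, where 34.7% and 36.8% of all genes were. In *Map3k8*[D270A] cells 2, 6 and 8 were lower and 0, 0 and 1 higher at 0.5, 1 and 2 h, where 0.892%, 4.64% and 13.1% of all genes were lower. Their median differences were -0.12, -0.13 and -0.27, against -0.01, 0.00 and 0.01 over all genes. The cytokine gene *Gdf15* (-0.87, SE 0.11), the HLH gene *Id3* (-0.77, SE 0.14) and the tissue factor gene *F3* (-0.69, SE 0.16) had the largest differences among those lower at 1 h. In *Elk1*-/-*Elk4*-/- cells 7 were lower and 3 higher before LPS (median -0.12), where 24.6% and 27.2% of all genes were. In these cells 5 were lower and 6 higher at 0.5 h (median 0.09), where 22% and 22.4% of all genes were, and 8 were lower and 4 higher at 1 h (median -0.17), where 26.2% and 27.2% were. At 2 h 8 were lower and 4 higher (median -0.24), where 23.1% and 27.7% of all genes were. In *Nfkb1*[SS/AA] cells 3 were lower and 6 higher before LPS (median 0.02), where 15.1% and 16.9% of all genes were. After it 4 were lower and 9 higher at 0.5 h (median 0.23), where 15.6% and 16.7% of all genes were, and 9 were lower and 4 higher at 1 h (median -0.18), where 21.9% and 20.5% were. With PD0325901 7 and 9 were lower and 1 and 2 higher at 0.5 and 1 h, where 15% and 19.3% of all genes were lower and 14.5% and 16.4% higher. With RSKi47 3, 3, 5 and 6 were lower and 8, 7, 8 and 6 higher at 0, 0.5, 1 and 2 h, where 26.3%, 24.5%, 26.3% and 24.6% of all genes were lower and 26.8%, 23.7%, 26.5% and 27.5% higher.

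Of 14 other immediate early genes 11 were lower and 0 higher at 1 h in *Map3k8*[D270A] cells, with a median of -0.88, where 4.64% of all genes were lower. *Fosb* (-1.29, SE 0.14), *Fos* (-1.16, SE 0.09) and *Nr4a1* (-1.07, SE 0.14) had the largest differences. At the same time 12 were lower in *Elk1*-/-*Elk4*-/- cells, 12 in *Nfkb1*[SS/AA] cells and 12 with PD0325901, where 26.2%, 21.9% and 19.3% of all genes were lower. The list medians there were -0.43, -0.92 and -0.85. With RSKi47 at 1 h 4 were lower and 3 higher, where 26.3% and 26.5% of all genes were, a share of the list close to that of all genes. At 0.5 h 10, 7, 8 and 10 were lower in *Map3k8*[D270A], *Elk1*-/-*Elk4*-/- and *Nfkb1*[SS/AA] cells and with PD0325901, where 0.892%, 22%, 15.6% and 15% of all genes were. The medians were -0.62, -0.20, -0.27 and -0.65, and 1 gene was higher, in *Elk1*-/-*Elk4*-/- cells. At 0.5 h 6 were lower and 0 higher with RSKi47, where 24.5% and 23.7% of all genes were, and at 2 h 7 were lower and 1 higher, where 24.6% and 27.5% were.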

How the data were processed

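Libraries of mouse BMDM RNA were sequenced single-end by the authors. Per the labels' processing notes the tools were STAR 2.5.1b, RSEM 1.2.29 and DESeq2 1.10.1 with build mm10, while the study's methods give other versions of STAR and RSEM. The deposited values are log2-scale normalized expression, 1 per gene and library, and no source read here says how the authors transformed them, though the study calls its plotted values log2 normalised counts. The values run from -2.40 to 19.81. A single value of *Fosb*, above 25, was treated as missing, and fits drop it for that gene. The depth of each library is unknown (the methods give only a typical yield), no interval from counts was computed, and a pseudocount was not needed.

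Groups, taken from the labels, were compared with limma 3.58.1 (R 4.3.3), 1 mean per group, moderated test without trend, Benjamini-Hochberg over all genes tested. Every adjusted p is from limma. The first fit held 62 libraries (WT, *Map3k8*[D270A], *Elk1*-/-*Elk4*-/-) and genes that reached 10 on the linear scale in 4 or more of them. The second held all libraries, and genes that did so in 3 or more. A gene was called at an adjusted p below 0.05. The scripts were tested on simulated data. Named genes were the members, the 3 genes most like each, and up to 3 genes per list. Members and lists were chosen with earlier results of these data known.

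Samples with one number across LPS times deviated together in WT (30 of 30 pairs with r over 0.1, median 0.48) and *Nfkb1*[SS/AA] cells (18 of 18, median 0.40), by the values and not by the labels. Not every pair did in *Map3k8*[D270A] (34 of 36, median 0.42), RSKi47 (20 of 21, median 0.32), *Elk1*-/-*Elk4*-/- (20 of 24, median 0.23) and PD0325901 libraries (14 of 33, median 0.07). A fixed replicate block changed no call of the LPS responses within WT and *Nfkb1*[SS/AA] cells. A random block ended no call and let 12 further values pass. Same-numbered WT and *Map3k8*[D270A] samples did not deviate together (0 of 12 pairs). The 2 sets of replicates, WT 4 to 6 with *Map3k8*[D270A] 1 to 3 and WT 7 to 9 with 4 to 6, were taken from the values, not the labels. Each mutant library was nearest to one of its own set, except replicates 1 and 5 at 0.5 h, which were each other's nearest. The matching of WT with mutant sets was not tested. Gene positions are those of RefSeq on GRCm38.p6, the assembly of mm10. Alternatives, including other scalings, filters, blocks, controls and single replicates left out, are given with the closing results.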

Additional observations from a re-analysis of the deposited data

Results flagged for a closer look

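The size of the LPS response differed from that of WT, by limma's test of the difference of responses, in 28 of 65 tests (5 genes, 13 arms and times). No share over all genes stands beside this count, and the tests share WT libraries, so it describes the members only. For *Egr1* the response minus that of WT was -4.58, -3.41 and -1.98 at 0.5, 1 and 2 h in *Map3k8*[D270A] cells, -3.48, -3.07 and -1.58 in *Elk1*-/-*Elk4*-/- cells, -2.22 and -2.72 at 0.5 and 1 h in *Nfkb1*[SS/AA] cells, and -3.40 and -3.13 with PD0325901. For *Egr3* it was -1.98, -2.51 and -1.45 in *Map3k8*[D270A] cells, -1.31 at 1 h in *Elk1*-/-*Elk4*-/- cells, -1.09 and -1.82 in *Nfkb1*[SS/AA] cells, and -1.55 and -1.19 with PD0325901, the latter -2.05 against the inhibitor alone for 10 min. The value of -1.09 was -0.67 (adjusted p = 0.192) with WT replicates 4 to 6 alone as control. *Egr2* contributed -1.17, at 0.5 h in *Map3k8*[D270A] cells, which did not pass with the second set of replicates alone (-1.40, adjusted p = 0.17).

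For *Nab2* the response minus that of WT was -0.72 and -0.95 at 1 and 2 h in *Map3k8*[D270A] cells, -0.48 and -0.77 in *Elk1*-/-*Elk4*-/- cells, and at 1 h -0.68 in *Nfkb1*[SS/AA] cells and -0.78 with PD0325901. The value of -0.72 did not pass with the second set of replicates alone (-0.51, adjusted p = 0.428). The value of -0.48 (adjusted p = 0.0472) was lost against WT replicates 7 to 9 alone (adjusted p = 0.577) and without any one of WT replicates 4 to 7 or *Elk1*-/-*Elk4*-/- replicates 1 to 4. *Nab1* contributed a larger response, 0.25 at 2 h in *Elk1*-/-*Elk4*-/- cells, which did not pass against WT replicates 7 to 9 alone (0.24, adjusted p = 0.128). With RSKi47 the response of *Egr1* at 1 h was 0.79 larger (adjusted p = 0.021, lost without WT replicate 7 or RSKi47 replicate 2 or 4, 0.61 to 0.77, and with either set of WT controls alone, adjusted p = 0.0618 and 0.0675) and that of *Egr3* at 2 h was 1.54 larger.

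A library stood apart from the others of its group in 8 of 100 groups of 4 to 6 values, where chance gives about 1 in 20. They were *Egr1* at 14.27 in WT replicate 8 at 0.5 h, at 7.17 in unstimulated *Elk1*-/-*Elk4*-/- replicate 2 and at 11.04 in *Nfkb1*[SS/AA] replicate 1 at 0.5 h, *Nab1* at 10.92 with PD0325901 in replicate 3 at 0.5 h and at 11.13 in *Nfkb1*[SS/AA] replicate 2 at 1 h, and, all in RSKi47 replicate 4 at 2 h, *Egr1* at 8.28, *Egr3* at 7.01 and *Nab2* at 9.84.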

How the results depend on the processing

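Alternatives were other scalings, filters and limma settings, 3 replicate blocks, other sets of WT controls and 47 refits that left out a replicate. Of 6150 values for the members, 5896 kept their direction and side of the threshold, 180 no longer passed, 71 newly passed and 3 changed sign (counted where a value was called under at least 1 setting). These were *Egr2* in *Nfkb1*[SS/AA] cells at 0.5 h, 0.039 against WT replicates 4 to 6 alone, and, against PD0325901 alone for 10 min (an alternative chosen after seeing the data), the responses under PD0325901 of *Egr1* at 1 h, -0.63, and *Nab2* at 0.5 h, -0.059. The cause was not tested. Counts of members follow.

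With a log2 difference of at least 1, WT responses left 3 higher at 1 h, 1 higher and 0 lower at 2 h. *Map3k8*[D270A] left 0 higher without LPS, 2 lower at 1 h and 1 lower at 2 h. *Elk1*-/-*Elk4*-/- left 0 higher at every time, 0 lower without LPS and 2 lower at 0.5 h. *Nfkb1*[SS/AA] left 0 lower without LPS and 2 lower at 1 h. PD0325901 left 2 lower at 0.5 and 1 h with LPS and 0 at 40 and 70 min without. RSKi47 left 0 lower at 0, 0.5 and 1 h and 0 higher at 0 and 2 h.

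With WT 7 to 9 as control, *Elk1*-/-*Elk4*-/- had 0 higher at 0.5 h, and RSKi47 0 higher without LPS and 2 lower at 0.5 h. With WT 4 to 6, *Elk1*-/-*Elk4*-/- had 0 higher at 1 h and RSKi47 1 higher at 0.5 h. Quantile normalization gave 0 higher in *Elk1*-/-*Elk4*-/- at 1 h, 2 lower in unstimulated *Nfkb1*[SS/AA] and 2 lower with RSKi47 at 0.5 h. The second set alone gave 1 higher and 0 lower in WT at 2 h. With the compared groups alone, RSKi47 had 0 higher without LPS and 2 at 1 h, and PD0325901 at 70 min 4 lower. A common median left 1 lower at 40 min.

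A replicate block by number across groups gave 2 higher in unstimulated *Map3k8*[D270A], ended 2 calls and let 2 values newly pass. A random block by arm and number ended no call, let 12 values newly pass, and gave RSKi47 2 higher at 1 h and 2 lower at 0.5 h. A fixed block within arms gave 4 lower at 40 and 70 min of PD0325901, where 14 of 33 same-numbered pairs had r over 0.1, and let the *Elk1*-/-*Elk4*-/- responses of *Egr1* at 1 h (0.34, adjusted p from 0.116 to 0.0017) and *Egr2* at 2 h (0.31, from 0.122 to 8.69e-06) pass. Averaging the PD0325901 libraries in pairs ended the calls of 5 of 50 values. Leaving out a replicate gave 0 to 1 higher with RSKi47 without LPS and 1 to 2 at 1 h, 2 to 4 lower in unstimulated *Elk1*-/-*Elk4*-/-, 1 to 2 in unstimulated *Nfkb1*[SS/AA] and 0 to 2 at 40 min of PD0325901. The depth of each library is unknown, so no limit from counting is given.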
